A study of Mus musculus with 8 samples.

Results

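The genes described here are 9 acetylcholine receptor genes, taken by symbol from the authors' deposited table of the lateral ganglionic eminence (LGE) of mouse embryos. They are the muscarinic receptor genes Chrm1, Chrm2, Chrm3 and Chrm4 and the nicotinic subunit genes Chrna3, Chrna4, Chrna5, Chrna7 and Chrnb2. All 9 are among the 15705 genes listed, and all 9 passed the filter on low values. The family was chosen by symbol, with the measured values of the comparison between genotypes already known. The differences between groups below are therefore a description of these genes, with the test result that the fit over all genes gave each of them, and no count of members supports a statement about the family.

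Poly(A) RNA was sequenced from the LGE of embryos at E18.5, when this structure of the ventral forebrain holds young striatal neurons. The 4 conditional knockout (cKO) libraries come from embryos of the genotype Dlx1-Cre; Isl1 flx/flx, in which the recombinase deletes the LIM-homeodomain factor gene Isl1 in cells where Dlx1 drives it. The 4 control libraries come from Isl1 flx/flx littermates without Cre, so both groups carry floxed Isl1 alleles and the effect of Cre itself cannot be told apart from that of the deletion. The dissected tissue also holds cells in which Dlx1 is not active, and neither sex nor litter is given in the labels.

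Acetylcholine acts on a pair of unrelated receptor classes. Muscarinic receptors are G protein-coupled: M1, M3 and M5 signal through Gq to phospholipase C, and M2 and M4 through Gi/o, which lowers cyclic AMP. Nicotinic receptors are ligand-gated cation channels of several subunits, of which the α4β2 and α7 forms are the main ones in brain. In the adult striatum, M1 is found on projection neurons of both pathways, M4 mainly on direct-pathway (striatonigral) neurons, and M2 serves as an autoreceptor of the cholinergic interneurons, which are the main local source of the transmitter.

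Some facts of the whole data set bear on these genes. The per-library values are adjusted read values, rounded to whole numbers by the authors, and the sequencing depth behind them is unknown. They sum to between 23732455 and 24456923 per library, sums that follow from the scaling. Isl1 was not lower in the libraries labelled cKO. Its adjusted values were 4930, 5377, 5618 and 5971 in cKO and 3777, 3692, 4186 and 3517 in controls (log2 fold change 0.53 ± 0.06 SE, limma adjusted p = 0.000338). Which exons Cre deletes is not stated, so this value does not check the labels, and every direction below rests on them. The LGE markers Dlx5 (adjusted values 2142 to 2290 in cKO and 1860 to 1943 in controls) and Bcl11b (22724 to 27832 in cKO and 25600 to 27548 in controls) were present in every library; Dlx5 rose by 0.24 ± 0.04 on the log2 scale (limma adjusted p = 0.0017) and Bcl11b did not pass. Several but not all pallial neuron markers were low in cKO replicate 4 and control replicate 3, with Tbr1 at 101 and 35 against 236 to 438 in the other 6. Of the 15698 genes tested, 6.66% passed the test (limma, Benjamini-Hochberg adjusted p under 0.05), 2.87% as higher and 3.78% as lower in cKO, and 12.7% had no overlap between the groups (6.37% with cKO above and 6.33% with cKO below the controls).

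Among the 9 receptor genes, Chrm2 and Chrm3 rose in the cKO, Chrm4 fell, and the other 6, namely Chrm1 and all 5 nicotinic subunit genes, did not pass the test. That is 3 of 9 genes, beside the 6.66% of all genes, and nothing is read from this share because the contrast was known when the family was proposed. The groups did not overlap for 4 of the 9 (Chrm2 and Chrm3 above, Chrm4 and Chrna7 below), beside 6.37% of all genes above and 6.33% below. The median log2 fold change of the 9 was -0.10, against 0.01 over all genes tested.

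**Figure D1:**
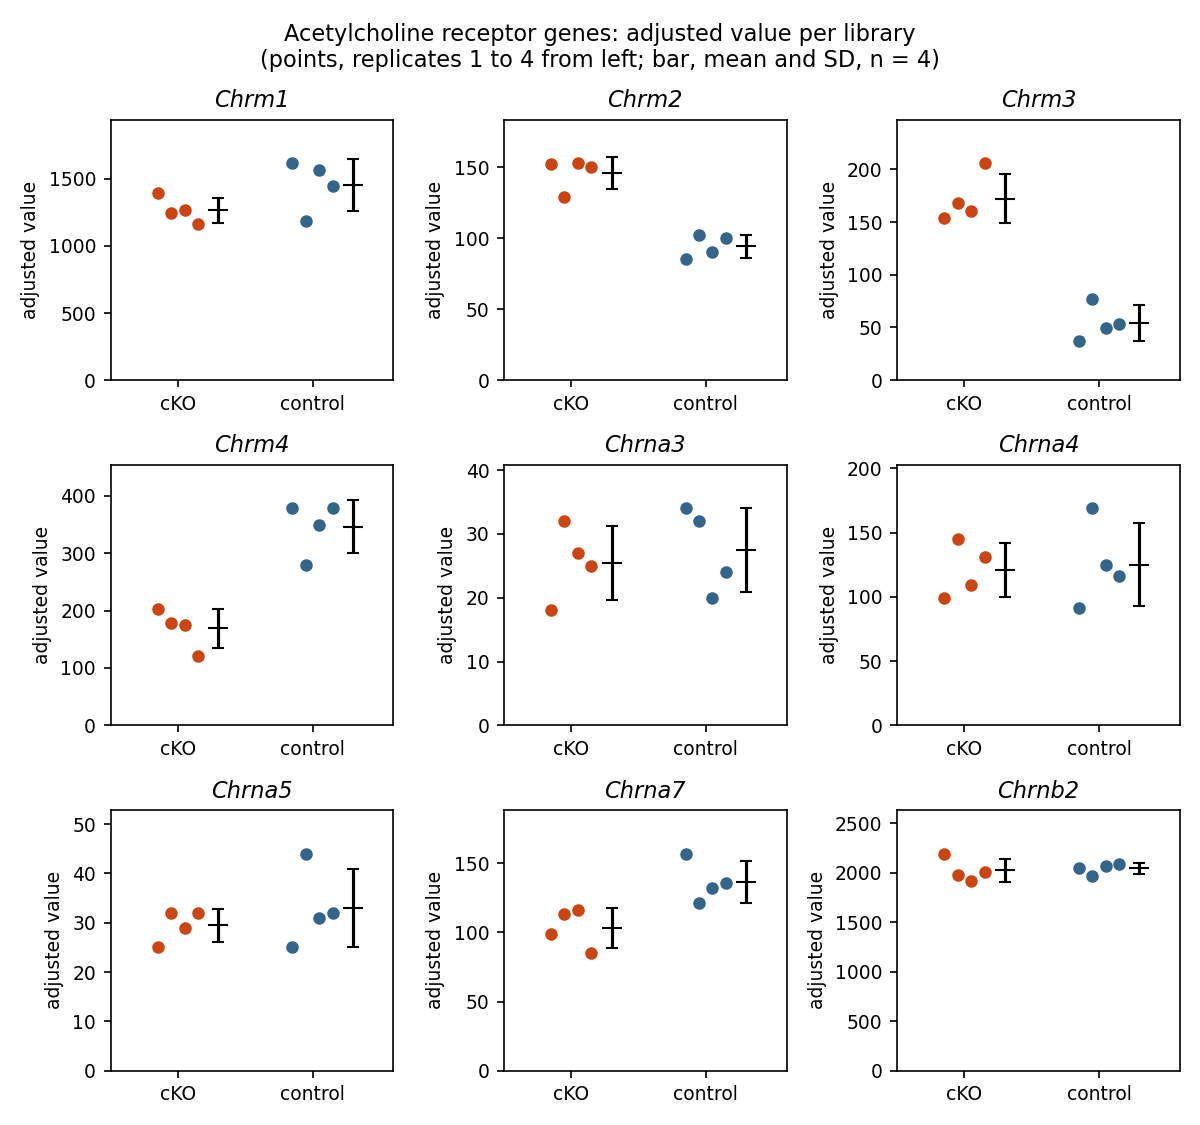
Adjusted value (y axis, from 0) of each of the 9 receptor genes in the 4 cKO and 4 control libraries, as points for replicates 1 to 4 from the left, with mean and SD beside them. The cKO points lie above all control points for Chrm2 and Chrm3 and below them for Chrm4 and Chrna7.

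Chrm3, which encodes the Gq-coupled M3 receptor, had adjusted values of 154, 168, 160 and 206 in cKO and of 37, 77, 49 and 53 in control replicates 1 to 4. The lowest cKO value was that of replicate 1 and the highest control value that of replicate 2, so the groups were far apart. The means were 172 ± 23.4 in cKO and 54 ± 16.8 in controls (SD, n = 4 each), a log2 fold change of 1.69 ± 0.19 (SE) with a limma adjusted p of 0.000218.

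Chrm2, which encodes the Gi/o-coupled M2 receptor, had 152, 129, 153 and 150 in cKO and 85, 102, 90 and 100 in controls. The groups did not overlap, and the cKO values were tightly grouped except for the lower replicate 2. The means were 146 ± 11.4 in cKO and 94.3 ± 8.10 in controls (SD, n = 4 each), a log2 fold change of 0.63 ± 0.10 (SE) with a limma adjusted p of 0.00311. Chrm2 shares exonic sequence with the non-coding gene 9330158H04Rik on the opposite strand. That gene averaged 9.5 in cKO and 4.75 in controls (log2 fold change 0.85 ± 0.35 SE, limma adjusted p = 0.218). The counting options are not known, strand included, so reads of such overlapping genes cannot be told apart and the values of Chrm2 are uncertain to that extent.

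Chrm4, which encodes the other Gi/o-coupled receptor of the family, moved the opposite way. It had 202, 178, 174 and 121 in cKO and 378, 280, 349 and 378 in controls. Its lowest value in the whole set was in cKO replicate 4, and its lowest control value in control replicate 2, still above all of the cKO. The means were 169 ± 34.2 in cKO and 346 ± 46.2 in controls (SD, n = 4 each), a log2 fold change of -1.05 ± 0.15 (SE) with a limma adjusted p of 0.00113.

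Chrm1, which encodes the Gq-coupled M1 receptor and was the most abundant of the 4 by the authors' RPKM, had 1392, 1243, 1265 and 1164 in cKO and 1619, 1187, 1568 and 1451 in controls. The groups overlapped, because control replicate 2 lay below 3 of the 4 cKO libraries. The log2 fold change was -0.19 ± 0.09 (SE), with a 95% interval of -0.39 to 0.00 and a limma adjusted p of 0.271. Without control replicate 2 it was -0.29 and passed the test (adjusted p = 0.0202), and without both libraries low in pallial markers it was -0.12 (adjusted p = 0.672).

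Chrm5, which encodes the remaining muscarinic receptor, M5, is listed in the table but was not among the 9. Its values were low, at 19, 20, 20 and 18 in cKO and 10, 11, 14 and 12 in controls, without overlap. The log2 fold change was 0.68 ± 0.20 (SE, limma adjusted p = 0.0744), and it passed the test only when the mean trend was left out (adjusted p = 0.00737) or on the log2(RPKM + 0.1) scale (adjusted p = 0.0254).

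**Figure D2:**
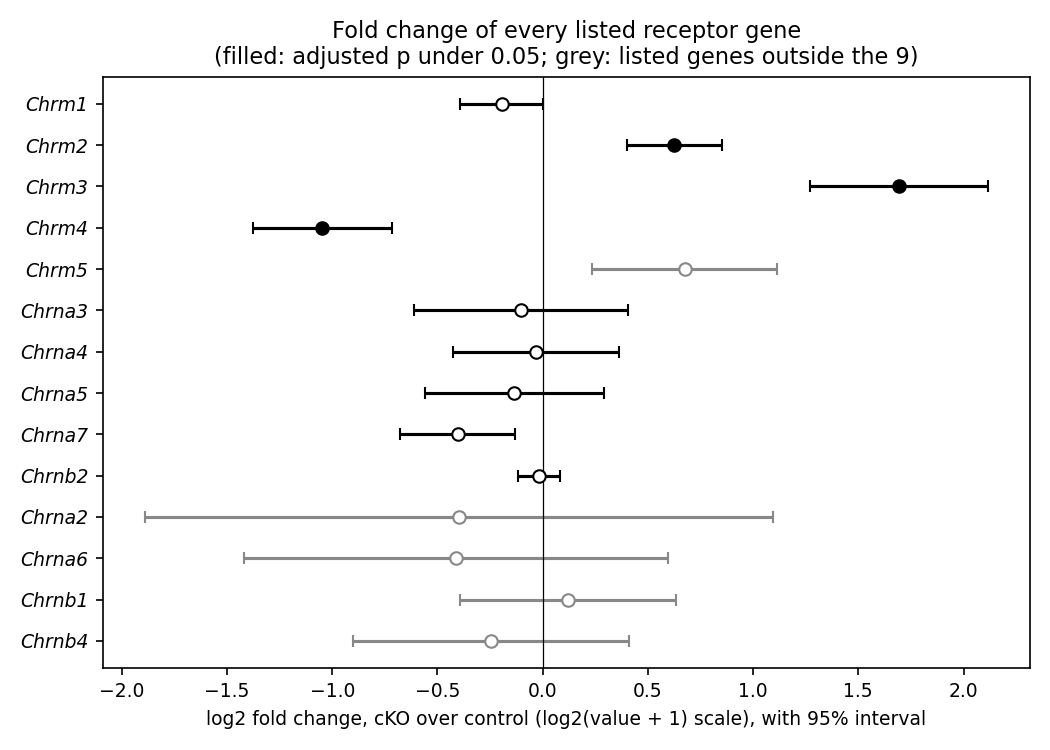
Log2 fold change of cKO over control on the log2(value + 1) scale (x axis) with its 95% interval for all 14 listed receptor genes (y axis), the 9 described here in black and the other 5 in grey. Filled points, for Chrm2, Chrm3 and Chrm4, passed the test; the intervals of Chrm5 and Chrna7 lie to one side of 0 without an adjusted p under 0.05.

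The values of the muscarinic genes also differed between libraries of the same group. In both groups the library highest in Chrm3 was the lowest in Chrm4: cKO replicate 4, with 2.66 RPKM of Chrm3 and 1.79 RPKM of Chrm4, and control replicate 2, with 0.995 RPKM of Chrm3 and 4.14 RPKM of Chrm4. RPKM is the authors' value scaled by library sum and by gene length in kilobases. The ratio of Chrm3 to Chrm4 RPKM was 0.666, 0.825, 0.803 and 1.49 in cKO and 0.0855, 0.240, 0.123 and 0.123 in controls. Control replicate 2 was the highest control also for Chrm2, Chrna4 and Chrna5 and the lowest for Chrm1, Chrna7 and Chrnb2.

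**Figure D3:**
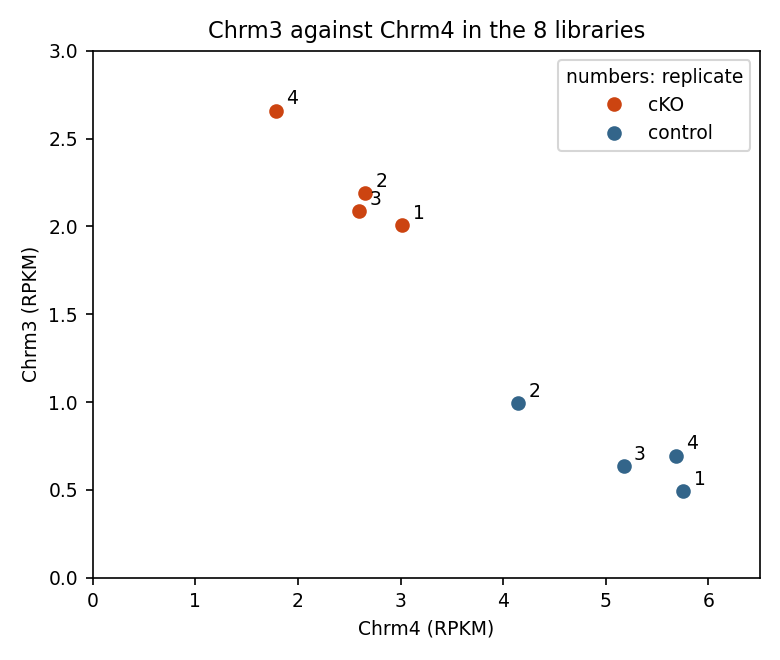
RPKM of Chrm3 (y axis) against RPKM of Chrm4 (x axis) in the 8 libraries, numbered by replicate and coloured by group. The cKO libraries lie at 2.01 to 2.66 RPKM of Chrm3 and the control libraries at 0.492 to 0.995; within each group the library highest in Chrm3 is the lowest in Chrm4.

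The promoter windows of the 3 muscarinic genes that passed the test are shown because these genes moved in opposite directions. They are from RefSeq, build GRCm38.p6, 250 bases before to 50 after the annotated start, read 5′ to 3′ on the strand of the gene. Capitals mark the GC box motif GGGCGG on either strand.
Chrm2, chr6:36387834-36388133, plus strand: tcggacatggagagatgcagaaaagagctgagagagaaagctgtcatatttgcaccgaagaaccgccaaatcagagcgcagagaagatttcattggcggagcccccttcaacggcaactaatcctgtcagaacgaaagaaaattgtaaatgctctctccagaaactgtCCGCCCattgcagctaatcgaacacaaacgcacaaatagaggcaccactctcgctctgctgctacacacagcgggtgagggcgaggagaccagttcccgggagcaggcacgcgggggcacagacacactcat
Chrm3, chr13:10360754-10361053, minus strand: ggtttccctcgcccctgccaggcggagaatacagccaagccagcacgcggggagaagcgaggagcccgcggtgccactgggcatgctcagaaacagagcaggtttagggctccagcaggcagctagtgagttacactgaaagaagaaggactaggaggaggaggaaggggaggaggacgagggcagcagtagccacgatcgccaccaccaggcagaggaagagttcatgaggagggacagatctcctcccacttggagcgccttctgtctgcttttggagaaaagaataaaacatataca
Chrm4, chr2:91921939-91922238, plus strand: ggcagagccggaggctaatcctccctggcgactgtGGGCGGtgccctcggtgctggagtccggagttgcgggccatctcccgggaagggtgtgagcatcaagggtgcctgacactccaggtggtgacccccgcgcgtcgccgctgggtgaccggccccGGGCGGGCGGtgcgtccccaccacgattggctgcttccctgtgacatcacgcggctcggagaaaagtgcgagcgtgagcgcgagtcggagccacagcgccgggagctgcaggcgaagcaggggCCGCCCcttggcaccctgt

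The Chrm4 window was GC-rich, with 70.7% G and C and 30 CG dinucleotides, and held 4 GC box matches, of which 2 overlap. The Chrm2 window had 52.7% G and C, 16 CG dinucleotides and 1 match, and the Chrm3 window had 57.3%, 11 CG dinucleotides and none. The median over all promoters of the table was 52.7% G and C and 7 CG dinucleotides. A promoter window was found for 8 of the 9 genes, all but Chrm1, with 2 windows for Chrna5. Of these 9 windows, 7 held the GC box, which 35.7% of all 32851 promoter windows hold; those without it were that of Chrm3 and 1 of the 2 of Chrna5. None held CTAATG (a motif bound by LIM-homeodomain factors, in 7.36% of all windows), TAATTA (a homeodomain motif, in 5.29%) or TATAAA (the TATA box, in 13.6%), each searched on both strands.

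The genes sit on 7 chromosomes, and their structures separate the classes. In the GENCODE annotation of GRCm38, the coding sequence of each muscarinic gene lies in 1 exon, whereas that of the nicotinic genes is split over 6 exons in Chrna3, Chrna5 and Chrnb2, 7 in Chrna4 and 10 in Chrna7. Chrm3 (chromosome 13, 9875486 to 10360847, minus strand) spans 485362 bp, and Chrm2 (chromosome 6, 36388084 to 36528414, plus strand) spans 140331 bp. Chrm4 (chromosome 2, 91927249 to 91928688, plus strand) is annotated by GENCODE over 1440 bp, while the RefSeq gene begins at 91922189, where the window above lies. Chrm1 is on chromosome 19 (8663789 to 8683587, plus strand).

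None of the 5 nicotinic subunit genes passed the test. Chrnb2, which encodes the β2 subunit, was the most abundant of the 9 by the authors' RPKM and the least variable, with adjusted values of 2193, 1976, 1915 and 2006 in cKO and 2046, 1970, 2063 and 2092 in controls. All 4 control values lay within the range of the cKO values. The log2 fold change was -0.02 ± 0.05 (SE), with a 95% interval of -0.12 to 0.08 (limma adjusted p = 0.902). In GENCODE, Chrnb2 (chromosome 3, 89746195 to 89764632, minus strand) shares exonic sequence with Adar on the opposite strand. The RefSeq gene of Chrnb2 covers 89753448 to 89764632, outside the GENCODE span of Adar, which ends at 89753446. Adar had a log2 fold change of -0.02 ± 0.04 (limma adjusted p = 0.881). The gene model behind the counts is not stated, so the values of Chrnb2 may be uncertain in the same way as those of Chrm2.

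Chrna7 (chromosome 7, 63098692 to 63212569, minus strand), which encodes the subunit of the homomeric α7 channel, had 99, 113, 116 and 85 in cKO and 157, 121, 132 and 136 in controls. All 4 cKO values lay below all controls, with the nearest pair 116 and 121. The log2 fold change was -0.40 ± 0.12 (SE), with a 95% interval of -0.68 to -0.13 and a limma adjusted p of 0.0870. In the authors' deposited table its adjusted p was 0.0364 at a log2 fold change of -0.40, so this gene is on the other side of the threshold there.

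Chrna4 (chromosome 2, 181018380 to 181043546, minus strand), which encodes the α4 partner of β2, had 99, 145, 109 and 131 in cKO and 91, 169, 125 and 116 in controls. The groups overlapped widely, and the controls held both the lowest and the highest value. The log2 fold change was -0.03 ± 0.18 (SE), with a 95% interval of -0.43 to 0.37 (limma adjusted p = 0.958).

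Chrna3 and Chrna5 encode subunits best known from autonomic ganglia and the habenula, and both were near the low end of the table. Chrna3 had 18, 32, 27 and 25 in cKO and 34, 32, 20 and 24 in controls. Its log2 fold change was -0.10 ± 0.23 (SE), with an interval of -0.61 to 0.41 (limma adjusted p = 0.874). Chrna5 had 25, 32, 29 and 32 in cKO and 25, 44, 31 and 32 in controls, with overlap throughout. Its log2 fold change was -0.14 ± 0.19 (SE), with an interval of -0.56 to 0.29 (limma adjusted p = 0.782). The intervals of these low genes are the widest of the 9. The genes lie tail to tail on chromosome 9 (Chrna5 at 54980880 to 55007779, plus strand, and Chrna3 at 55010111 to 55026562, minus strand), and in RefSeq they overlap by 1304 bp (55010117 to 55011420) on opposite strands, so their values are uncertain for the same reason.

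Beyond the 9 genes and Chrm5, 4 other nicotinic genes are listed, all with low values. Chrnb1 averaged 22.8 in cKO and 20.5 in controls, Chrnb4 8.5 in cKO and 10 in controls, Chrna6 2.5 in cKO and 3.25 in controls, and Chrna2 1.75 in cKO and 2.5 in controls. None passed the test, with log2 fold changes of 0.12, -0.25, -0.41 and -0.40. The remaining 7 genes of the family were not analysed here.

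Levels can be compared between genes only per length. By the authors' RPKM the order in the cKO was Chrnb2 (15.5 ± 0.931), Chrm1 (8.30 ± 0.651), Chrm2 (2.95 ± 0.229), Chrm4 (2.51 ± 0.518), Chrm3 (2.24 ± 0.291), Chrna7 (2.04 ± 0.289), Chrna4 (1.12 ± 0.192), Chrna5 (0.444 ± 0.0488) and Chrna3 (0.336 ± 0.0768) RPKM (SD, n = 4). In the controls it was Chrnb2 (15.7 ± 0.527), Chrm1 (9.61 ± 1.35), Chrm4 (5.19 ± 0.744), Chrna7 (2.71 ± 0.335), Chrm2 (1.92 ± 0.153), Chrna4 (1.17 ± 0.290), Chrm3 (0.705 ± 0.212), Chrna5 (0.498 ± 0.115) and Chrna3 (0.365 ± 0.0899) RPKM (SD, n = 4). In the cKO the values of Chrm2, Chrm4, Chrm3 and Chrna7 overlapped from one neighbour to the next, whereas in the controls Chrm4, Chrna7 and Chrm2 were apart from each other and from Chrna4. Chrna4 overlapped Chrm3, Chrm3 overlapped Chrna5 and Chrna5 overlapped Chrna3 in the controls. Only Chrnb2 and Chrm1 were above the middle of all listed genes by mean RPKM, at the 67.3 and 51.6 percentiles in cKO and the 67.6 and 54.8 percentiles in controls.

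The order depends on the gene length used. The length behind the authors' RPKM was 2036 bp for Chrm2, 3168 bp for Chrm3 and 2768 bp for Chrm4, against exonic lengths of 6053, 6253 and 1440 bp in GENCODE. With the GENCODE lengths only 4 of the 9 genes keep their rank in cKO and 3 in controls, and Chrm4 was above Chrm1 in the controls, at 9.97 ± 1.43 against 9.31 ± 1.31 per kilobase on the RPKM scale (SD, n = 4). The GENCODE model of Chrm4 holds little beyond its coding sequence of 1437 bp and is shorter than the length the authors used. Its level per length is raised by that, so the place of Chrm4 above Chrm1 rests on the short model. Fold changes of a gene between groups do not involve its length.

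Within the summed RPKM of the 4 muscarinic genes, Chrm3 held 14.1% ± 2.60 in cKO and 4.17% ± 1.75 in controls, and Chrm2 held 18.48% ± 1.47 in cKO and 11.1% ± 1.92 in controls (SD, n = 4 each). Chrm4 held 15.6% ± 2.55 in cKO and 29.7% ± 1.66 in controls, and Chrm1 held 51.8% ± 1.12 in cKO and 55.0% ± 2.88 in controls. The shares of Chrm2, Chrm3 and Chrm4 did not overlap between groups. With GENCODE lengths the Chrm1 difference turned round, to 53.7% ± 1.46 in cKO and 45.8% ± 1.79 in controls, while those of Chrm2, Chrm3 and Chrm4 kept their direction. That calculation uses the short GENCODE model of Chrm4, which raises the share of Chrm4 in both groups. The sum itself was 16.01 ± 0.943 RPKM in cKO and 17.4 ± 1.72 RPKM in controls, with overlap. Among the 5 nicotinic genes, Chrnb2 held 79.7% ± 2.53 of the RPKM in cKO and 76.8% ± 1.37 in controls, and Chrna7 held 10.5% ± 1.56 in cKO and 13.2% ± 1.39 in controls, both with overlap.

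**Figure D4:**
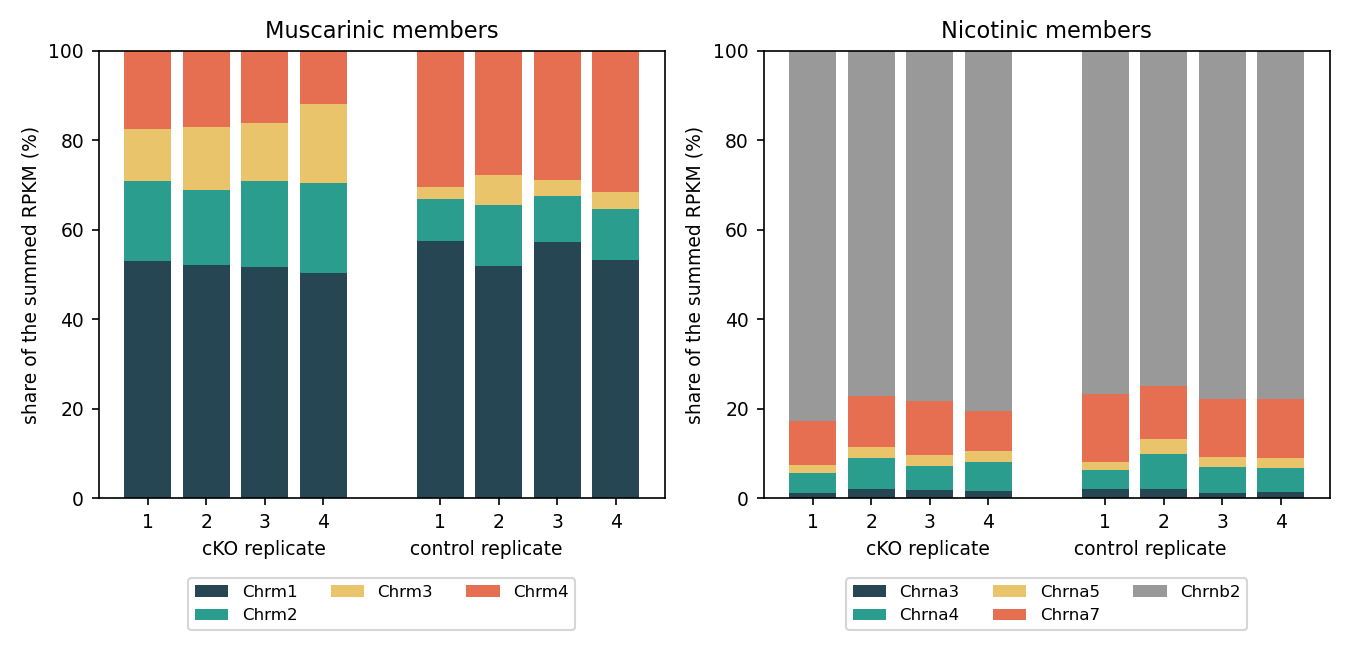
Share of the summed RPKM (y axis, percent) that each muscarinic (left) and nicotinic (right) gene takes in the 4 cKO and 4 control libraries (x axis). Chrm4 takes 11.9 to 17.5% in cKO and 27.8 to 31.5% in controls; the small difference of Chrm1 turns round with GENCODE gene lengths.

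Genes of cell types known for these receptors moved as well. In bulk tissue, fewer cells of a type and less RNA per cell cannot be told apart. The counts per marker list, here and in the next paragraph, stand beside 2.87% of all genes tested that rose and 3.78% that fell. The lists were chosen with earlier results of these data known, so nothing is read from the counts. Beside the fall of Chrm4, 5 of 10 striatonigral markers fell and 1, Isl1, rose. Their summed level was 202 to 222 RPKM in cKO and 272 to 289 RPKM in controls. Tac1, the substance P precursor gene, had 202 to 339 in cKO and 1824 to 2134 in controls, while the dopamine receptor gene Drd1, with 603 to 716 in cKO and 637 to 816 in controls, did not pass (limma adjusted p = 0.217). Of 9 striatopallidal markers 3 rose, Adora2a by 0.31 ± 0.04 and Drd2 by 0.20 ± 0.05 among them, and their sum was 261 to 270 RPKM in cKO and 232 to 244 RPKM in controls.

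Beside the rise of Chrm2, the gene of a cholinergic autoreceptor, and the fall of Chrm4, 8 of 11 cholinergic markers fell and none rose. Their sum was 5.86 to 11.6 RPKM in cKO and 14.6 to 23.4 RPKM in controls. Chat, the gene of the acetylcholine-making enzyme, was at 0, 2, 2 and 1 in cKO and 13, 21, 15 and 9 in controls. Cholinergic markers were highest within their group in cKO replicate 4 and control replicate 2, the libraries that were also highest in Chrm3. In the list for interneurons born in the neighbouring medial eminence, 3 of 12 genes fell (Npy, Nos1 and Cxcr4) and 1 rose (Maf), and their sum was 216 to 251 RPKM in cKO and 266 to 295 RPKM in controls. Of 15 markers of the LGE and its projection neurons, 6 rose, Dlx1, Dlx5, Meis2 and the targeted gene Isl1 among them, and 2 fell, Ppp1r1b and Rarb. Their sum, which holds Isl1, was 1269 to 1303 RPKM in cKO and 1107 to 1169 RPKM in controls. Isl1 alone averaged 89.3 RPKM in cKO and 62.2 RPKM in controls. Of 7 erythroid genes 3 rose, among them Hba-a1 and Hba-a2, whose values were identical in every library and overlapped between groups. The erythroid sum, which holds both, was 559 to 779 RPKM in cKO and 393 to 619 RPKM in controls. Of 7 astrocyte markers 1, Sox9, rose, and none of the thalamic and habenular, vascular and oligodendrocyte lineage markers passed. Of 12 microglial markers 10 rose, with a sum of 90.1 to 110 RPKM in cKO and 58.0 to 65.5 RPKM in controls. The pallial markers summed to 22.3 to 36.0 RPKM in cKO and 14.6 to 33.5 RPKM in controls, and 1 of 12 passed. It was Bhlhe22, which rose by 2.61 ± 0.39 on the log2 scale, with 294 to 335 in cKO and 17 to 91 in controls. Without the libraries low in pallial markers the log2 fold changes were 0.59 for Chrm2, 1.57 for Chrm3 and -0.89 for Chrm4, and all 3 passed. No defining marker of these lists was at 0 in a library except Chat. The part of these cell types in the receptor changes was not tested.

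Genes that supply and clear the transmitter fell in part. Of 9 genes of acetylcholine synthesis, transport and breakdown, 4 fell and none rose, beside 3.78% and 2.87% of all genes tested. Chat, Slc18a3 and Slc5a7 were also among the cholinergic markers that fell above. The median log2 fold change of the 9 was -1.66 against 0.01 over all genes. That median is the value of Colq, at 0, 0, 2 and 0 in cKO and 4, 5, 1 and 4 in controls. Colq is near the floor, its groups overlapped, and it did not pass (limma adjusted p = 0.115). The vesicular transporter gene Slc18a3 had 1, 8, 4 and 7 in cKO and 42, 104, 63 and 38 in controls, and the choline transporter gene Slc5a7 had 26, 28, 12 and 31 in cKO and 100, 151, 106 and 111 in controls. Prima1, which encodes the membrane anchor of acetylcholinesterase, had 4, 4, 8 and 10 in cKO and 24, 46, 27 and 29 in controls (log2 fold change -2.16 ± 0.32 SE, limma adjusted p = 0.00147). The 4 genes that fell, Slc18a3, Slc5a7, Prima1 and Chat, did not overlap between groups. Ache, the gene of the esterase itself, was less different, at 268, 239, 288 and 316 in cKO and 308, 376, 334 and 345 in controls (log2 fold change -0.30 ± 0.09 SE, limma adjusted p = 0.0933).

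Beside 3.78% of all genes that fell and 2.87% that rose, 2 of 17 Gq transduction genes downstream of the receptors fell and none rose. They were Kcnq5, a subunit of the M-current potassium channel that muscarinic receptors close, with a log2 fold change of -0.43 ± 0.09 (SE), and the protein kinase C gene Prkca, with -0.30 ± 0.07. Neither call held without the mean trend, where the fold changes are the same by construction (adjusted p = 0.0579 for Kcnq5 and 0.111 for Prkca). Without the libraries low in pallial markers, a fit on fewer samples, Kcnq5 had -0.45 (adjusted p = 0.0554) and Prkca -0.24 (adjusted p = 0.171). Leaving out control replicate 3, control replicate 4 or any one of cKO replicates 2, 3 and 4 also ended the Prkca call, at adjusted p of 0.0699 to 0.0933.

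Of 14 Gi/o transduction genes, 2 rose and 1 fell, beside 2.87% and 3.78% of all genes tested. Kcnj5, which encodes a subunit of the potassium channel that M2 opens in heart, had 83, 71, 82 and 88 in cKO and 16, 15, 17 and 16 in controls. The Gi subunit gene Gnai1 rose by 0.47 ± 0.04 on the log2 scale, with means of 2720 in cKO and 1968 in controls. The adenylyl cyclase gene Adcy1 had a log2 fold change of -0.44 ± 0.06, with means of 5315 in cKO and 7171 in controls. Among 12 kinase, arrestin and RGS genes, which end receptor signalling, 3 fell and 1 rose, beside the same shares of all genes. Rgs4, whose product speeds the shut-off of Gq and Gi, had 838, 707, 889 and 708 in cKO and 2412, 1767, 2053 and 2172 in controls (log2 fold change -1.42 ± 0.10 SE). Rgs6 fell by 1.04 ± 0.09 and the receptor kinase gene Grk5 fell by 0.75 ± 0.07 on the log2 scale. Rgs8 rose by 0.22 ± 0.05, a call lost in 10 of its 20 alternatives, with adjusted p up to 0.187. The medians of the Gq, Gi/o and desensitisation lists, at -0.07, 0.03 and -0.05, were close to the 0.01 of all genes.

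**Figure D5:**
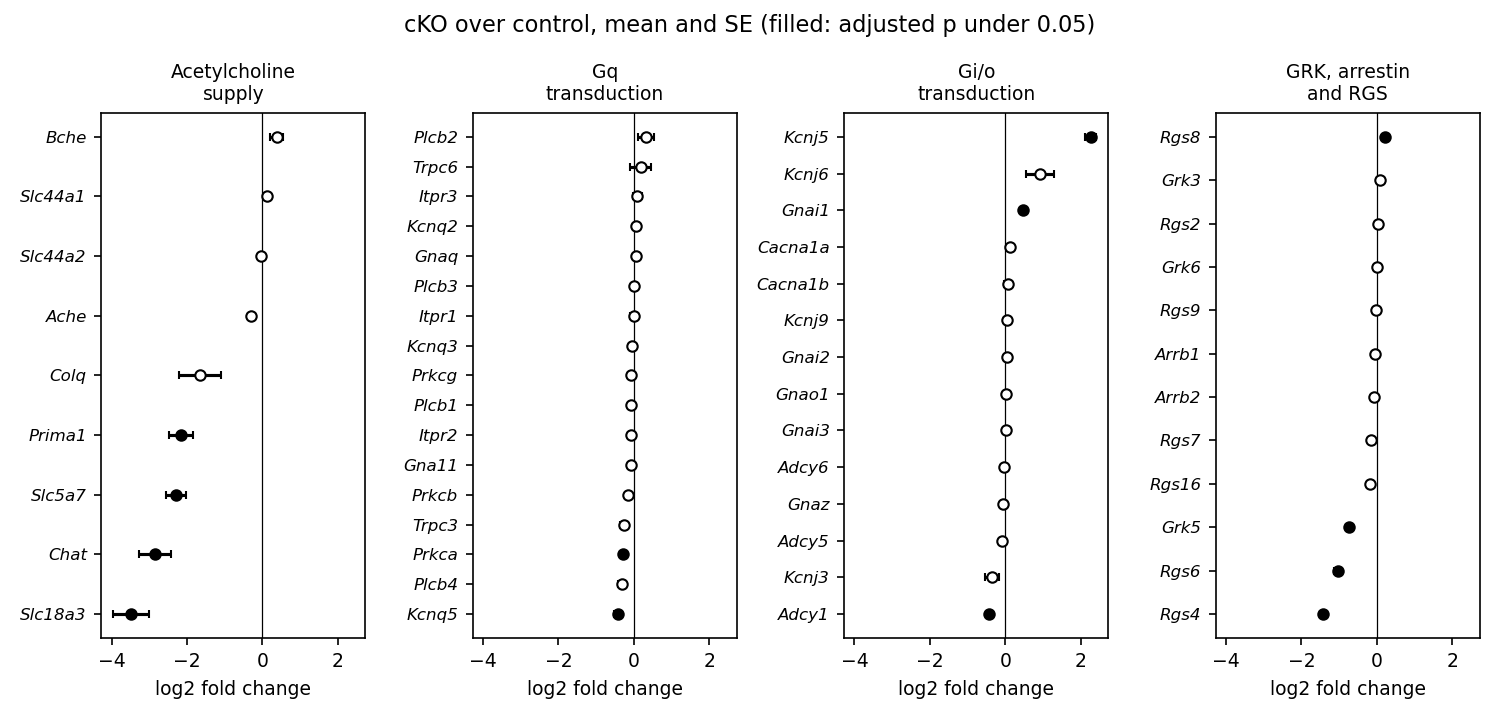
Log2 fold change of cKO over control (x axis) with its SE for the genes (y axis) of 4 lists around the receptors, filled where the adjusted p was under 0.05. The 4 filled points of the acetylcholine supply list lie at -3.48 to -2.16, whereas most genes of the other lists lie near 0.

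The genes most like the 3 that passed were ranked by Pearson's r of log2(value + 1) over the 8 libraries, among 11520 genes of sufficient level. The libraries share genotype groups and the authors' adjustment, so a high r is common: 217 genes had an r of at least 0.9 with Chrm3, 199 with Chrm2 and 253 with Chrm4. For Chrm3 the leading genes included the RNA-binding protein gene Nova1 (r = 0.994), Champ1 (0.992), Scube1 (0.992) and Klhdc10 (0.988). For Chrm2 the first 5 were Cd180, a receptor gene of B cells and myeloid cells (r = 0.989), Ppm1h (0.980), Fancc (0.980), Klhl1 (0.977) and Nln, the gene of the peptidase neurolysin (0.976). For Chrm4 they were the sterol enzyme gene Cyp51 (r = 0.996), Ano3 (0.995), Fndc9 (0.990), Sybu (0.989) and the growth factor gene Tgfa (0.986). The sizes differed widely: the log2 fold changes of the genes named ran from 0.11 for Champ1 to 0.59 for Scube1 beside Chrm3, from 0.22 for Nln to 1.63 for Klhl1 beside Chrm2, and from -0.75 for Tgfa to -0.13 for Cyp51 beside Chrm4.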

How the data were processed

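Poly(A) RNA of the LGE was sequenced in 8 libraries, 4 per group, from 1 ug of total RNA with a directional kit and 85 bp single reads, per the labels' protocols. Groups and replicate numbers come from the sample titles. STAR, featureCounts, edgeR and build mm10 are named in the submitters' processing notes as what the authors used, with no versions or counting options. The table holds, per gene and library, an adjusted value, which is treated as a score made by the authors rather than a read count: upper quartiles were 1624 to 1635 in all libraries, and within groups 1 direction of variation was nearly absent (singular value 0.000241, next smallest 0.0435). What removed it is not stated and was not tested; if it was taken out of the values before deposit, SDs, SEs and p-values are too small to a degree. Depth cannot be recovered, so no counting interval is given. The RPKM columns deposited by the authors are these values scaled by library sum and gene length. The authors' deposited log2 fold changes, whose sign is cKO over control, and their adjusted p-values served as an alternative.

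Values were compared as log2(value + 1) with limma 3.58.1 (mean trend) in R 4.3.3 over 15698 genes, those reaching 1 in at least 4 libraries (7 left out). Benjamini-Hochberg adjustment covered all of them, and an adjusted p under 0.05 was called. Fold changes on this scale understate those of low genes. Intervals are the model's 95% intervals. The fit was tried on simulated data with independent noise per gene. Only recovery and mean size at an absolute log2 fold change of 2 had to meet a limit. No limit was set for smaller changes or false calls. The members and lists were chosen with earlier results of these data known. Named genes are Isl1, all listed receptor genes, up to 4 genes with the smallest p that passed in each pathway list plus Chat, Slc18a3, Slc5a7 and Ache, up to 2 defining genes per cell marker list, the 5 genes most like each receptor gene that passed (mean RPKM of at least 1 in a group, no gene models, no X or Y genes) and overlapping genes. Npy, Nos1, Cxcr4, Maf, Dlx1, Meis2, Ppp1r1b, Rarb, Sox9, Bhlhe22, Hba-a1 and Hba-a2, chosen after their values were seen, are named as members of their lists that passed. Colq, which did not pass, is named because it sets the median of its list. Some results under this rule are not reported here. Coordinates are those of GENCODE M21 on GRCm38, which mm10 denotes, and promoter windows are from RefSeq; their orientation was checked by looking for the last 30 bases in a transcript, found for 8 of 9 windows, all but that of Chrm4. Alternatives were other scalings, pseudocounts, filters, tests and gene lengths, a covariate for the nearly absent direction, a replicate block and leaving out libraries.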

Additional observations from a re-analysis of the deposited data

Results flagged for a closer look

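Chrm2 in cKO replicate 2, with an adjusted value of 129, stood apart from the other 3 cKO libraries at 150, 152 and 153. Its gap to the nearest of them was 0.875 of the range of the group, above Dixon's 95% critical value for 4 libraries. It was the only such value among 48 groups of 4 values examined, where chance alone is taken to give about 1 in 20. The value lay toward the controls, whose highest was 102, and Chrm2 passed the test with and without this library.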

How the results depend on the processing

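Chrm2, Chrm3 and Chrm4 kept their direction and passed the test in all 20 alternatives run. Their log2 fold changes ran from 0.58 to 0.68 for Chrm2, from 1.53 to 1.88 for Chrm3 and from -1.15 to -0.89 for Chrm4, with adjusted p of at most 0.0377, 0.0063 and 0.0141. The count of receptor genes that rose was 2 throughout. The count that fell was 2 in the authors' deposited table, where Chrna7 was added, and ran from 1 to 2 when 1 library was left out, with Chrm1 added without control replicate 2. Over all genes, 610 passed without the libraries lowest in pallial markers, and 659 to 959 when 1 library was left out, the lowest without control replicate 4, in each case with fewer samples. With the nearly absent direction of variation as a covariate, 749 genes passed, against 1045 in the main fit. Chrm2, Chrm3 and Chrm4 passed there too, at limma adjusted p of 0.00991, 0.000369 and 0.00183, and Chrna7 did not (0.157). With GENCODE exonic lengths, chosen after the data were seen, 4 of 9 genes kept their level rank in cKO and 3 in controls. Replicate numbers do not pair the libraries: correlations of same-numbered deviations from the group means ran from -0.53 to 0.21, and not every library correlated best with its own number. The replicate block gave 1199 calls over all genes, with 2 receptor genes higher and 1 lower, as without it. With unknown depth, the low values of Chrna3 and Chrna5 limit what can be seen in them.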
